A study of Homo sapiens with 14 samples.

Results

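The sites described here are the places far from coding promoters where phosphorylated JUN (p-JUN) and acetylated histone H3 (H3K27ac) were found together on both a soft and a stiff matrix, in LX-2, a human line of immortalised hepatic stellate cells. They were chosen by peak calls. The peaks of 4 p-JUN libraries were merged wherever they shared 1 bp, and a region was kept when it was called in all 4, lay more than 3 kb from every protein-coding transcript start, and overlapped an H3K27ac peak in both the soft and the stiff list. Merging gave 61411 p-JUN regions. All 4 libraries called 40433 of them, and 31309 of these were distal. H3K27ac lay in both lists at 6350, which is 20.3% of the distal regions and 10.3% of all merged regions. Another 3306 distal regions overlapped an H3K27ac peak in the soft list only, 1036 in the stiff list only and 20617 in neither.

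The samples were LX-2 cells labelled as kept for 2 days on a soft (2K) or a stiff (40K) matrix, a fibronectin-coated polyacrylamide gel in the study's methods, and were profiled by CUT&Tag, in which an antibody brings a transposase to its target and the released fragments are sequenced. There were 2 p-JUN, 2 H3K4me3 and 2 H3K27me3 libraries per matrix, and 1 merged H3K27ac list per matrix, so H3K27ac has no replicate error. The p-JUN libraries labelled stiff carried TCP in their titles, the abbreviation the study uses for culture plastic, where the other stiff libraries carried 40K. The p-JUN contrast is therefore one between libraries labelled soft and stiff, and plastic and stiff gel cannot be told apart in it. LX-2 is 1 immortalised line. The study's methods call its sequencing replicates biological, while the labels do not say how the cultures behind the libraries of a matrix were separated. The p-values reach at most to the spread between these libraries. Those of limma, a linear model fit, rest mainly on a variance trend over all regions and little on a region's own libraries. Those of the sign-flip tests compare the same sequences read at each library's summit.

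JUN is a subunit of AP-1, a pair of leucine zipper proteins that binds the motif TGACTCA or TGAGTCA. The JNK kinases phosphorylate JUN in its activation domain, and AP-1 is known in stellate cells and fibroblasts as a regulator of activation and matrix genes. H3K27ac marks active promoters and enhancers, H3K4me3 is strongest at transcription starts, and H3K27me3 is laid down by Polycomb at silent genes. TEAD factors, which bind DNA for the mechanosensitive cofactors YAP and TAZ, recognise CATTCC or AATTCC and often share enhancers with AP-1.

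The sites with the strongest p-JUN signal that hold an AP-1 motif at all 4 summits are shown first, since their letters show how the motif is arranged. Each sequence is 101 bases of hg19 (GRCh37), plus strand, centred on the median p-JUN summit of the 4 libraries, with each AP-1 motif in capitals. Each is named by its nearest protein-coding gene, which need not be a gene it acts on. In order the windows are chr1:236260512-236260612, chr5:912695-912795, chr2:237678905-237679005, chr16:90061579-90061679, chr1:115722190-115722290 and chr5:33050011-33050111.
NID1: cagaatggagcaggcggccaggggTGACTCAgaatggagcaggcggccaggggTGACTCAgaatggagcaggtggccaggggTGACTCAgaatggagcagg
TRIP13: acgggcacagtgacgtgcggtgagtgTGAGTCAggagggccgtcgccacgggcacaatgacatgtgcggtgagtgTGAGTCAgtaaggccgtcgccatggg
ACKR3: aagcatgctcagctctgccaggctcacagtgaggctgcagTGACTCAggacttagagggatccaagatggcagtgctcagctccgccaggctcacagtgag
DBNDD1: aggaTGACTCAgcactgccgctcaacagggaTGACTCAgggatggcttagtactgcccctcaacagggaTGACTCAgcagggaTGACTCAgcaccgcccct
TSPAN2: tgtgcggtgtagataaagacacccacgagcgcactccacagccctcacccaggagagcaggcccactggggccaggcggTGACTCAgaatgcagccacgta
NPR3: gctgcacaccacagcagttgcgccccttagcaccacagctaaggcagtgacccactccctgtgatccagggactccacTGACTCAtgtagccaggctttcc

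Several of these windows are stretches of tandem repeat in which the motif recurs. The NID1 region, 31.8 kb from the nearest coding start and between genes, held 11 AP-1 motifs, 9 of them 29 bp after the one before. The DBNDD1 region, over an exon of a non-coding transcript, held 44 motifs, with a spacing of 27 bp seen 19 times. Regions nearest to BRD1 and TRIML1 held 49 each, the most of any site, with a spacing of 40 bp seen 26 times and of 56 bp seen 30 times. Such sites were rare: 283 of the 6350 had 3 or more motifs anywhere in the region and 16 had 5 or more.

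Fragments at a peak summit were recovered from the deposited values as whole numbers. At the NID1 site they were 3007 and 2448 on soft against 2470 and 2746 on stiff, so the groups overlapped. At DBNDD1 they were 2462 and 2236 on soft against 1907 and 2071 on stiff, and both stiff libraries were lower. At ACKR3, a chemokine receptor gene whose nearest start is 200 kb away, they were 1391 and 1310 on soft against 1491 and 1720 on stiff, and both stiff libraries were higher. After centring of the libraries, the log2 stiff over soft difference of limma was -0.12 ± 0.04 (SE, n = 2 per matrix) at NID1 (Benjamini-Hochberg adjusted p = 0.060), -0.30 ± 0.05 at DBNDD1 (adjusted p = 3.5e-07) and 0.19 ± 0.05 at ACKR3 (adjusted p = 0.0055).

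p-JUN was strong at the 6350 acetylated sites as a group. Their median summit held 173 and 152 fragments in the soft libraries against 155 and 183 in the stiff ones. At the distal sites without H3K27ac the medians were 70 and 60 on soft against 65 and 74 on stiff. The acetylated sites were thus 2.38 to 2.53 times higher in each of the 4 libraries, and between 60.6% and 65% of them had a summit in the top quartile of its list. Peak calls chose these sites, and a stronger site is called more easily, so the difference is given as a description. Sites acetylated in the soft list only (98 to 116 fragments) or in the stiff list only (85 to 111) lay in between.

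**Figure D1:**
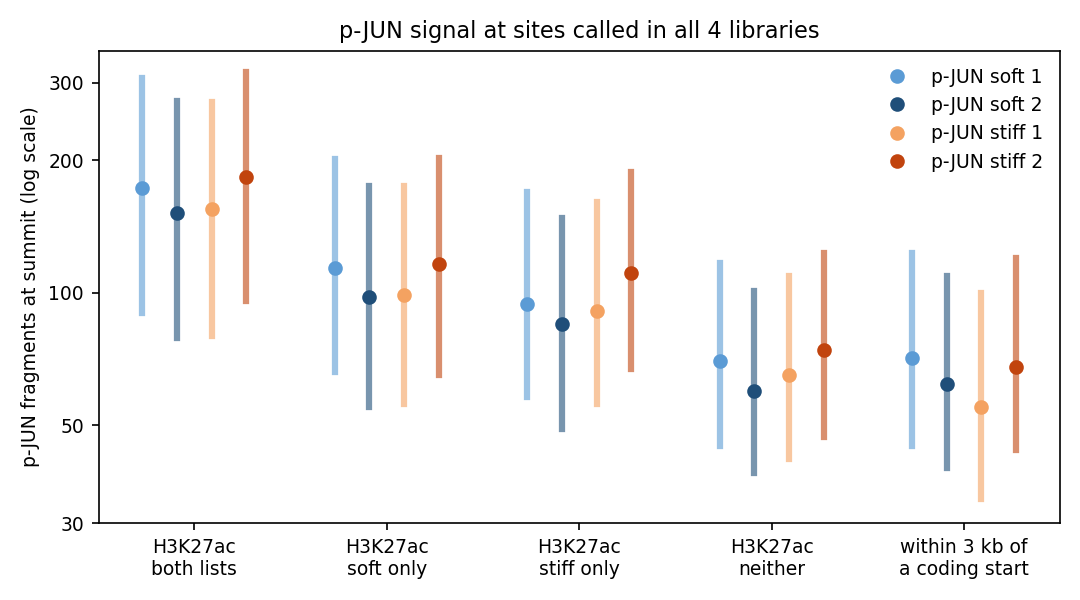
Median (points) and quartiles (bars) of p-JUN fragments at the summit, on a log axis, for regions called in all 4 p-JUN libraries, by H3K27ac call and distance from a coding start. The acetylated distal sites have medians of 152 to 183 fragments in the 4 libraries, against 60 to 74 at distal sites with H3K27ac in neither list.

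The acetylated sites were wide regions in introns and between genes. Their median width was 844.5 bp, against 614 bp for distal sites without H3K27ac. An intron of a coding gene held the summit at 44.9%, the space between genes at 32.6%, an intron of a non-coding gene at 14.1%, an exon of a non-coding transcript at 5.87% and a coding exon at 0.929%. The median distance to a coding start was 33.4 kb (quartiles 13.7 and 87.3 kb), and 22% lay more than 100 kb away. The rule counts coding starts only: 967 sites (15.2%) were within 1 kb of the start of some other transcript, against 8.75% of the sites without H3K27ac. At the edge of the rule, the nearest sites inside lay 3012 bp from MUC5AC, a mucin gene, and 3033 bp from HROB. The nearest outside lay 3000 bp from HMGA1 and 2968 bp from GABBR2. Their p-JUN fragments ran from 600 to 973 at those inside and from 366 to 1135 at those outside.

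The rule also used H3K27ac and asked its peaks to overlap the p-JUN region, so short distances between their summits follow in part from it. No distance to compare them with was computed. The acetylation peaks at the sites had a median of 34 fragments in the soft list against 29 in the stiff list, where the lists as a whole had 27 and 26. Their summits lay a median of 74 bp (soft) and 85 bp (stiff) from the p-JUN summit, and 24.5% and 22.5% lay within 25 bp of it. The sites took up 34.8% of all soft peaks and 47.7% of all stiff peaks.

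To see whether the acetylated sites carry the AP-1 motif more or less often than other p-JUN sites, the share with a motif centre within 50 bp of the summit was counted on both strands at each library's own summit. The share was 33.2% and 32.4% in the soft libraries against 32.6% and 31.8% in the stiff ones, a mean of 32.5% ± 0.59 (SD, n = 4 libraries). The same window 1 kb to each side held a motif at 1.83% to 1.91% of the sites. In distal sites without H3K27ac the mean was 42.2% ± 0.64, higher in 4 of 4 libraries. Acetylated minus unacetylated, the mean difference was -9.73 percentage points (-10.4 to -8.86 over the libraries), and the exact two-sided sign-flip test over libraries gave p = 0.13, the smallest that 4 libraries allow. The 4 libraries read the same reference letters at the same regions, with summits spread over a median of 46 bp at acetylated sites. The SDs of AP-1 shares and this test therefore reflect shifts of the summit and give no replicate support to the difference. Sites acetylated on soft only had 38.4%, those on stiff only 28.1%, and sites within 3 kb of a coding start 16.9%. Over all distal regions at the median summit of the 4 libraries the share was 40%.

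The gap was wider among sites of like p-JUN signal. When all distal regions were split into quartile groups of mean p-JUN fragments, the acetylated sites had the motif at 10.6% to 14.3% (4 libraries) in the lowest group and at means of 16.8%, 28.2% and 41.8% in the others. Distal sites without H3K27ac had it at means of 33.5%, 40.8%, 47.3% and 55.4%. Weighted by the acetylated sites in each quartile group, the mean difference was -17.0 points, with the same sign in 4 of 4 libraries. Acetylated sites were also richer in G and C, with a median GC content of 50.5% against 45.5%. Within quartile groups of GC content the mean difference was -11.1 points, again with the same sign in 4 of 4 libraries, with p = 0.13 in the exact sign-flip test for either split. These signs and tests share the limit of the test above.

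**Figure D2:**
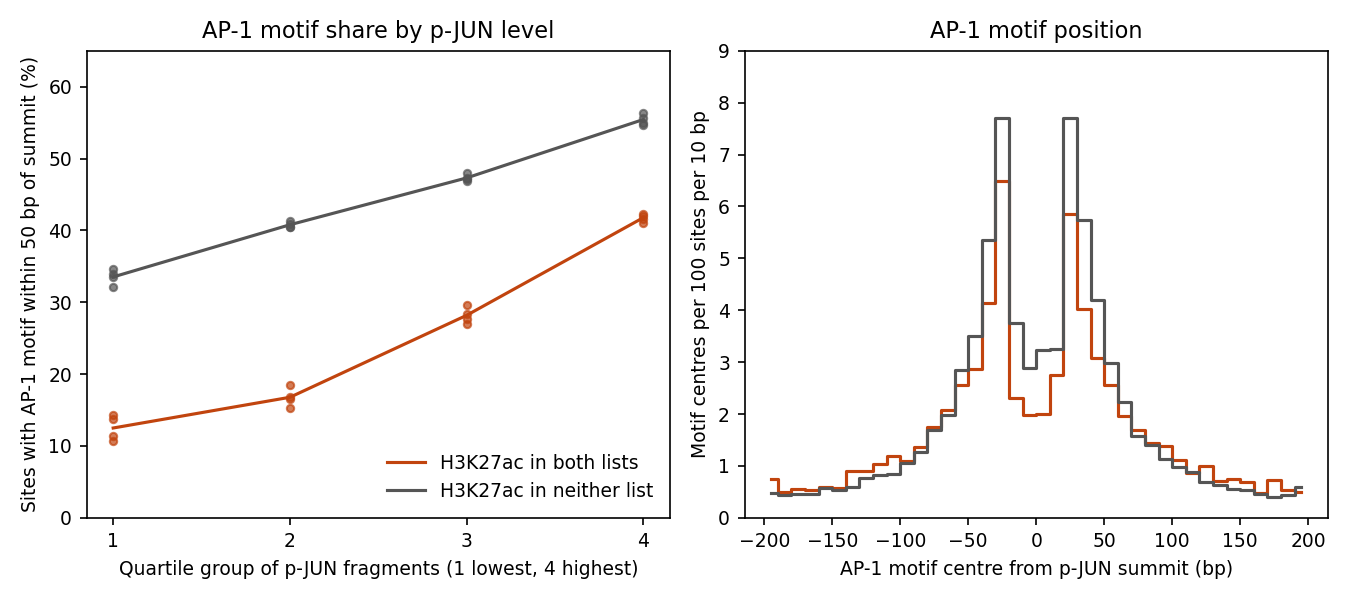
Left, share of distal sites with an AP-1 motif centred within 50 bp of the p-JUN summit, by quartile group of mean p-JUN fragments over all distal sites, for sites with H3K27ac in both lists or in neither (points, 4 libraries; lines, their mean). Right, AP-1 motif centres per 100 sites in 10 bp steps around the summit. The acetylated sites lie below in every quartile group (10.6% to 14.3% over libraries in the lowest, against a mean of 33.5%), and both profiles are highest on either side of the summit.

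More motifs went with more p-JUN. Acetylated sites with no motif in the window had a median of 137 fragments (n = 4281), those with 1 had 209 (n = 1879), those with 2 had 374 (n = 179) and those with 3 or more had 582 (n = 11). Without H3K27ac the medians were 60.3, 73.0, 107 and 127. The motif rarely lay on the summit itself. Of the nearest motifs, 12.7% were centred within 10 bp of it, and the median distance was 26 bp. The letters beside the motif differed too. The 9 letters ATGACTCAT, which have A before and T after the motif, made up 7.40% of the motifs at acetylated sites and 14.0% at sites without H3K27ac. At acetylated sites the most frequent form was CTGAGTCAC (13.3%). When the whole region was searched, 62.6% of the acetylated sites held at least 1 AP-1 motif.

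Several other motifs were also more frequent at the acetylated sites than at those without H3K27ac, and the TEAD and ETS motifs are described for their high shares. TEAD letters (CATTCC or AATTCC, or GGAATG or GGAATT on the other strand) lay within 50 bp of the summit at 19.0% (95% Wilson interval 18 to 19.9), against 11.2% in the flanking windows, 16% at distal sites without H3K27ac and 24.1% at sites acetylated on stiff only. ETS letters (CAGGAA or CCGGAA, or TTCCTG or TTCCGG) were found at 21.2%, against 11.9% in the flanks and 14.7% at sites without H3K27ac. Over all distal regions the shares were 16.9% for TEAD and 16.7% for ETS. Of the rarer motifs, SP1 letters (GGGCGG or CCGCCC) were at 4.13% of the acetylated sites against 2.29% of those without H3K27ac, a larger ratio than for TEAD or ETS, and were at 2.90% of all distal regions. The NF-kB motif, loosely spelt and on either strand, was at 6.90% against 4.74% (5.23% of all distal regions) and part of the CTCF core (AGGGGGC or AGAGGGC, either strand) at 4.71% against 3.32% (3.69%), both also larger ratios than for TEAD. The flanks of acetylated sites also held more of these letters than those without H3K27ac, at 4.65% against 3.59% (NF-kB) and 3.06% against 2.37% (CTCF). For TEAD the flanks were at 11.2% in both. Over their own flanks, the shares at acetylated sites were 1.48 times for NF-kB, 1.54 for CTCF, 1.69 for TEAD, 1.79 for ETS and 2.02 for SP1. By this measure NF-kB and CTCF lay below TEAD, and SP1 above it. The CRE form TGACGTCA, bound by JUN with ATF partners, was rare at 0.504%. These intervals cover counting over sites only.

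To explore how p-JUN changed between the matrices at these sites, log2 fragments were compared by limma over all 40433 regions called in the 4 libraries. Of the 6350 acetylated sites, 440 (6.93%) were higher and 706 (11.1%) were lower in the libraries labelled stiff at an adjusted p under 0.05. Over all regions tested, 6.16% were called higher and 7.39% lower, so the share of higher calls was near the background and that of lower calls above it. The acetylated sites hold more fragments. Their median SE was 0.11, against 0.17 at distal sites without H3K27ac and 0.18 near coding starts. A change of the same size is thus called more easily at them, and the shares of calls do not show larger changes. Both stiff libraries exceeded both soft ones at 22.9% of the acetylated sites and lay below both at 36.3%, against 22.5% and 33.3% of all regions. The changes were small. The median log2 difference was -0.05 over the acetylated sites and also -0.05 over all regions, which take in regions near coding starts at -0.17 and distal sites without H3K27ac at 0.004. Of those distal sites 7.63% were called higher and 4.80% lower, so that higher calls outnumbered lower ones there and not at the acetylated sites. Among the acetylated sites the median size among the 1146 called was 0.37. A fold of 1.5 or more was reached by 96 of those called higher and 69 of those called lower. These calls depend on how the variance is modelled. Without the trend of variance on level, 0 sites passed (smallest adjusted p = 0.063 by limma, with 1141 sites at an unadjusted p under 0.05), and with the deposited fold in place of fragments 0 passed (329 at an unadjusted p under 0.05).

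The calls made without each library in turn showed that the balance of directions rests on few libraries. Without the second soft library, higher calls outnumbered lower ones at the acetylated sites and over all regions alike, so the split turned. Without the first soft library lower calls still led at the acetylated sites, while over all regions both directions were nearly even. Lower calls also led in both sets without the second stiff library. The median log2 difference at the acetylated sites was -0.02 without the second soft library and -0.07 without the first. Over all regions it was -0.04 and -0.06. Quantile normalization also turned the split, to 496 higher and 319 lower, against 2360 and 1495 over all regions. Centring on the distal sites without H3K27ac, a setting chosen after seeing the data, moved the split the other way. It gave 342 higher and 1100 lower, against 1976 and 4531 over all regions. The turns are thus not particular to the acetylated sites. Site by site, the change was in part shared by separate libraries. Across the 6350 sites the log2 ratio of the first stiff to the first soft library correlated with that of the second pair at r = 0.58, and with the pairs crossed at r = 0.54. Points share base composition and level within a pair, and the correlation is a description.

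The largest rise was at a site between genes 27 kb from SNTN, with 28 and 24 fragments on soft against 52 and 78 on stiff (log2 difference 1.24 ± 0.21, limma adjusted p = 2.0e-06). A site between genes, 74.8 kb from the nearest start, that of COL8A1, a short-chain collagen gene, had 66 and 76 fragments on soft against 119 and 168 on stiff (0.94 ± 0.14, adjusted p = 1.1e-07). In both, the stiff libraries lay above the soft ones, and no AP-1 motif was found in the region. The 2 acetylated sites within 50 kb of a COL8A1 start were not called: 1 had 110 and 87 fragments on soft against 120 and 104 on stiff, the other 453 and 429 against 393 and 483, and their log2 differences were 0.14 and -0.07. A site in an intron of GABBR2 rose from 34 and 22 to 54 and 58 (0.98 ± 0.21, adjusted p = 0.00033). The largest fall was in an intron of a non-coding gene, 104 kb from FAM240C, with 466 and 497 fragments on soft against 174 and 226 on stiff (-1.34 ± 0.09, adjusted p = 2.7e-35). The 101 bases at its summit are a tandem repeat, and the part of this in its signal was not tested. THADA held a site in an intron that fell from 83 and 70 to 34 and 33 (-1.24 ± 0.19, adjusted p = 2.3e-07). A site nearest to SDCBP fell from 59 and 46 to 32 and 21 (-1.06 ± 0.22, adjusted p = 0.00013). None of these 6 sites had an AP-1 motif within 50 bp of the summit.

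The direction of p-JUN change was related to which motif a site held. Among acetylated sites called higher on stiff, 28.4% had a TEAD motif (95% Wilson interval 24.4 to 32.8, n = 440) and 14.1% an AP-1 motif (11.2 to 17.7). Among those called lower, 12.2% had a TEAD motif (9.97 to 14.8, n = 706) and 47.2% an AP-1 motif (43.5 to 50.9). Sites not called lay in between, at 19.1% for TEAD and 32.2% for AP-1. The ETS motif had nearly the same share in each group, 20.9%, 20% and 21.4%. The flanking windows held TEAD letters at 12.6% of the sites called higher and 10.1% of those called lower, and AP-1 letters at 2.27% and 1.98%. The same order was seen at distal sites without H3K27ac, where TEAD was at 24.2% of the sites called higher and 11.6% of those called lower, and AP-1 at 25.6% and 50.3%. The relation is therefore not particular to acetylated sites.

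Windows of the 3 largest called rises with a TEAD and no AP-1 motif, and of 2 of the 3 largest called falls with an AP-1 and no TEAD motif, show the 2 kinds of site. They were picked after their values were seen. Sites on some chromosomes were left out beforehand, and both stiff libraries had to lie on the same side of both soft ones. TEAD letters are in capitals in the first 3 and AP-1 letters in the others. In order the windows are chr16:69951858-69951958, chr5:33817470-33817570, chr5:171381668-171381768, chr4:7958157-7958257 and chr15:45175071-45175171.
WWP2: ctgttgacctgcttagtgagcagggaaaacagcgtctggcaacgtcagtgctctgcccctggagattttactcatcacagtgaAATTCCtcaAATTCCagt
ADAMTS12: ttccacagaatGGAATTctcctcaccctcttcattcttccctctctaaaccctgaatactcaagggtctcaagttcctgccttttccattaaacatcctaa
FBXW11: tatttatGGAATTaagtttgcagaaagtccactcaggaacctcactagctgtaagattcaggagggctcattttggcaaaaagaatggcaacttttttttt
AFAP1: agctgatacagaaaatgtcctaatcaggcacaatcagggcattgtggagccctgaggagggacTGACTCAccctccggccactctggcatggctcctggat
TERB2: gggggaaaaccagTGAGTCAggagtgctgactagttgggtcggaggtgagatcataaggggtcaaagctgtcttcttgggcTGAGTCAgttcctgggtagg

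At ADAMTS12, a gene for a matrix-cleaving metalloprotease, p-JUN was at 61 and 62 fragments on soft against 102 and 140 on stiff (log2 difference 0.90 ± 0.15, limma adjusted p = 2.4e-06). The site lies in an intron, and both stiff libraries were higher. At AFAP1, which codes for an actin-filament-associated protein, p-JUN was at 69 and 71 fragments on soft against 39 and 46 on stiff (-0.78 ± 0.19, adjusted p = 0.0014). At the site nearest to TERB2 it was at 224 and 173 on soft against 113 and 132 on stiff (-0.74 ± 0.11, adjusted p = 1.5e-07), and H3K27ac there had 44 fragments in the soft list against 16 in the stiff list.

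Without the calls, the relation was seen for TEAD and, in part, for AP-1. The 6350 sites were ranked by the ratio of 1 stiff to 1 soft library and split into deciles. In the first pair of libraries the TEAD share went from 14.6% in the lowest decile to 25.8% in the highest, and the AP-1 share from 26.5% to 14.3%. In the second pair, which shares no library with the first, TEAD went from 15.4% to 27.7% and AP-1 from 32.9% to 14.3%. With the deposited fold, TEAD went from 16.5% to 25.2% and AP-1 from 27.2% to 15.1%. The AP-1 share was not highest in the lowest decile: it reached 42.4% in the fourth decile of the first pair and 47.4% in the second decile of the other pair. Over all 6350 sites it was 32.6% at the median summit. The lowest decile lay below this in the first pair and with the deposited fold, and close to it in the second pair. The high AP-1 share of sites called lower was thus not seen at the largest falls.

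**Figure D3:**
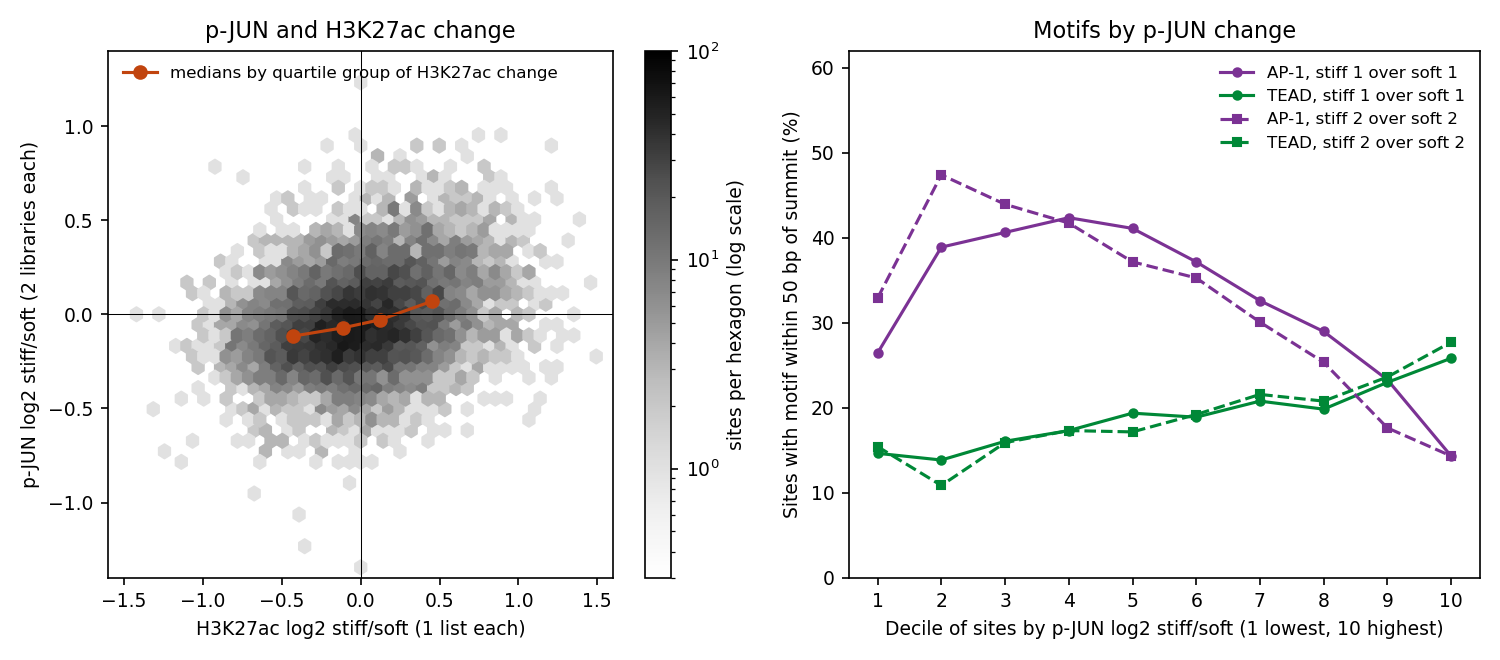
Left, log2 stiff over soft of p-JUN (mean of 2 libraries per matrix) against that of H3K27ac (1 list per matrix) at the 6350 acetylated sites, with medians by quartile group of H3K27ac change in orange. Right, share of the sites with an AP-1 or a TEAD motif within 50 bp of the summit, by decile of p-JUN change in 2 pairs of libraries that share none. In the highest decile TEAD is at 25.8% and 27.7% and AP-1 at 14.3% in both pairs.

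Other features moved along with this order, and their part in it was not tested beyond the splits given here. Sites called higher on stiff had a median GC content of 46.5% and 151.4 fragments, and 6.14% had H3K4me3 in all 4 libraries. Sites called lower had 53.5%, 292.5 fragments and 26.5%. In each quartile group of GC content the highest decile of p-JUN change had fewer AP-1 motifs than the lowest decile, with 4.30% against 23.7% in the quartile group poorest in GC and 16.4% against 29.8% in the richest. For TEAD the shares were 25.8% against 23.7% in the poorest quartile group, hardly apart, and 31.0% against 17.7%, 30.6% against 15% and 22.3% against 10.9% in the others. Within quartile groups of p-JUN level, TEAD was more frequent in the highest decile in 4 of 4. Sites with a TEAD and no AP-1 motif (n = 831) had a median log2 difference of 0.06, and the 4 possible pairs of libraries gave -0.01 to 0.12. Sites with an AP-1 and no TEAD motif (n = 1696) had -0.10, and the 4 pairs gave -0.13 to -0.07.

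Between the lists, H3K27ac at these sites changed about as it did at all H3K27ac regions that both lists share. After each list was centred on the H3K27ac regions that both share, the median log2 stiff over soft was -0.002, with quartiles of -0.24 and 0.26. Before centring it was -0.21, and so was that of all shared H3K27ac regions. The sites held 6348 distinct soft peaks, against 11044 shared regions, so they weigh heavily in the centring. A centred median near 0 was therefore largely set by it. There were 55 sites (0.866%) at least 2-fold higher in the stiff list and 25 (0.394%) at least 2-fold lower. Over all 11044 shared H3K27ac regions the shares were 0.616% and 0.272%, and the rule used these calls, so nothing is read from the counts. The highest ratio was at a site 14.5 kb from ROCK1, with 50 fragments on soft and 124 on stiff, followed by sites nearest to ANKRD33B (17 and 41) and BTBD9 (9 and 20). The lowest were nearest to NXNL2 (56 and 18), CP, the ceruloplasmin gene (45 and 16), and EFCAB2 (50 and 18). With 1 list per matrix these single sites have no replicate check.

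p-JUN and H3K27ac tended to change the same way. Across the 6350 sites the log2 ratios correlated at r = 0.29 (Spearman 0.29), a description over sites that share libraries, level and base composition. From the lowest to the highest quartile group of H3K27ac change the median p-JUN log2 difference was -0.12, -0.07, -0.03 and 0.07. In the highest quartile group (n = 1590) 213 sites (13.4%) were called higher and 80 (5.03%) lower for p-JUN. In the lowest quartile group (n = 1588) the counts were 41 (2.58%) and 270 (17.0%). Over all acetylated sites the shares were 6.93% and 11.1%, and over all regions tested 6.16% and 7.39%. The rule used the H3K27ac calls, so these groups are a description. The AP-1 share went the other way, from 39.2% and 34.2% to 32.0% and 25%. The p-JUN libraries labelled stiff carry TCP and the H3K27ac list 40K, so both sides of this relation need not refer to the same surface.

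To examine marks that the rule did not use, H3K4me3 and H3K27me3 peaks were laid over the sites. H3K4me3 overlapped 21.5% and 23.6% of the sites in the soft libraries against 23.2% and 26.7% in the stiff ones. The difference was 2.39 percentage points, with overlapping groups and p = 0.667 in the exact two-sided permutation test, where 2 against 2 libraries can give no less than 0.333. Distal sites without H3K27ac had H3K4me3 at 2.52% to 2.91%, so the acetylated sites were 8.44 to 9.20 times higher in each library. In all 4 libraries 1011 acetylated sites had the mark, and 4262 had it in none. The 1011 differed from the 4262 in several ways. Their AP-1 share was 23.1% ± 0.98 (SD, n = 4 libraries) against 35.3% ± 0.69, their GC content 54.5% against 49.5%, and 33.0% against 10.9% lay within 1 kb of a non-coding transcript start. Their p-JUN medians were much alike, 150 to 185 fragments against 142 to 173.

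H3K27me3 was nearly absent. It overlapped 0.740% and 0.472% of the sites on soft against 0.772% and 0.693% on stiff. The difference was 0.126 points with p = 0.667 in the exact permutation test, which adjustment over both marks leaves at 0.667, and it turned to -0.008 without the second soft library. Distal sites without H3K27ac had the mark at 0.432% to 0.878% over the libraries, and sites within 3 kb of a coding start at 0.318% to 0.734%. The low share is therefore not particular to the acetylated sites. Over all lists 52 acetylated sites had a H3K27me3 peak in any library and 28 in all 4. The lists themselves were of unequal length, from 6974 to 19843 peaks, the longest being that of the first soft library.

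**Figure D4:**
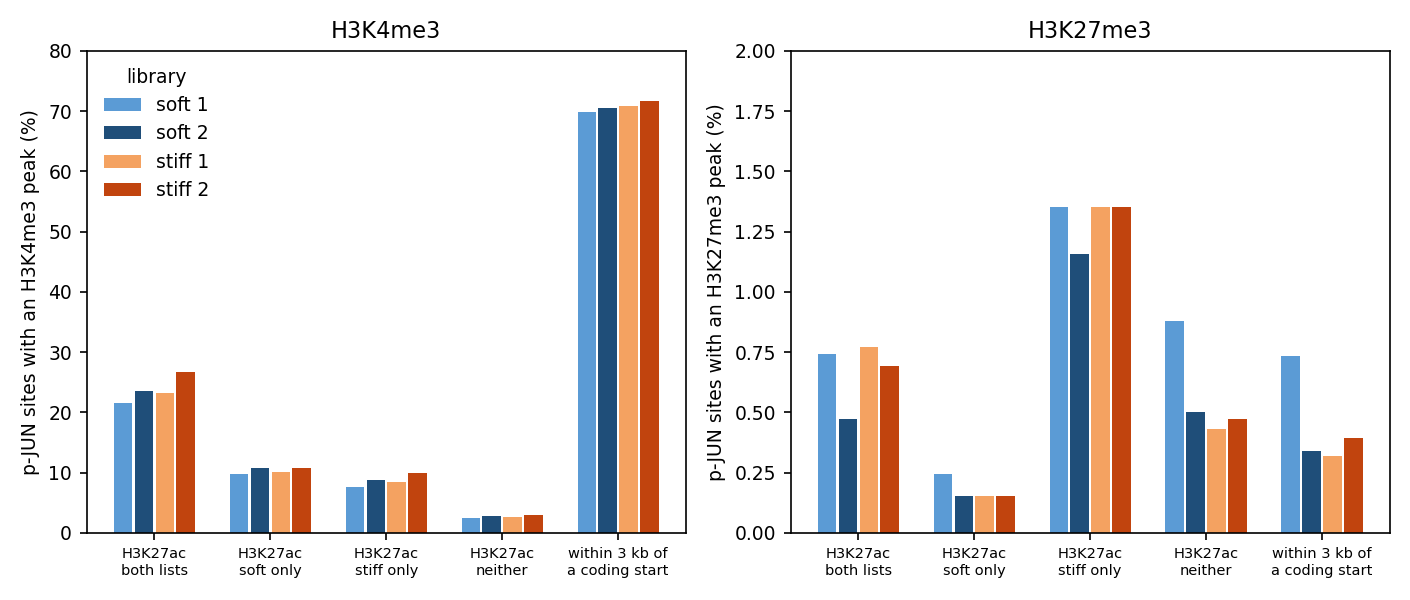
Share of p-JUN sites that overlap an H3K4me3 (left) or H3K27me3 (right) peak in each library, by H3K27ac call and distance from a coding start; the vertical scales differ. The acetylated distal sites have H3K4me3 at 21.5% to 26.7%, between distal sites without H3K27ac and sites near coding starts. They have H3K27me3 at under 1%, as both of these other classes do.

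To describe which genes lie close by, coding genes with an acetylated site within 50 kb of a transcript start were counted. There were 4742 of 19794 (24.0%). Distance does not show that a site acts on a gene, and lists of long genes with many starts take in more sites. Integrin and focal adhesion genes had a site at 17 of 24 (70.8%) and YAP, TAZ and TEAD genes and their targets at 12 of 18 (66.7%). Matrix and matrix-remodelling genes had one at 22 of 44 and AP-1 genes at 9 of 18. TGF-beta and SMAD genes had one at 8 of 18, cytokines and growth factors at 11 of 25, and both the contractile and the MAP kinase genes at 9 of 24. Housekeeping ribosomal protein genes, a list with no tie to stellate cells, had one at 11 of 24 (45.8%), so most of these shares are near that of a list of widely active genes.

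Cell type markers gave no clear stellate pattern at this distance. Stellate and myofibroblast markers had a site at 6 of 18, hepatocyte markers at 3 of 9, cholangiocyte markers at 4 of 7, endothelial markers at 3 of 7 and macrophage markers at 2 of 8. The label was checked by H3K4me3 within 1 kb of the start. It was present in all 4 libraries at 9 of 18 stellate markers, among them ACTA2, COL1A1, PDGFRB, TAGLN and VIM, and absent in all 4 at markers that include COL1A2, DCN, DES, LRAT and LUM. It was at 0 of 9 hepatocyte markers, 1 of 7 endothelial (KDR), 1 of 8 macrophage (CD14) and 3 of 7 cholangiocyte markers (ANXA4, EPCAM and SOX9).

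**Figure D5:**
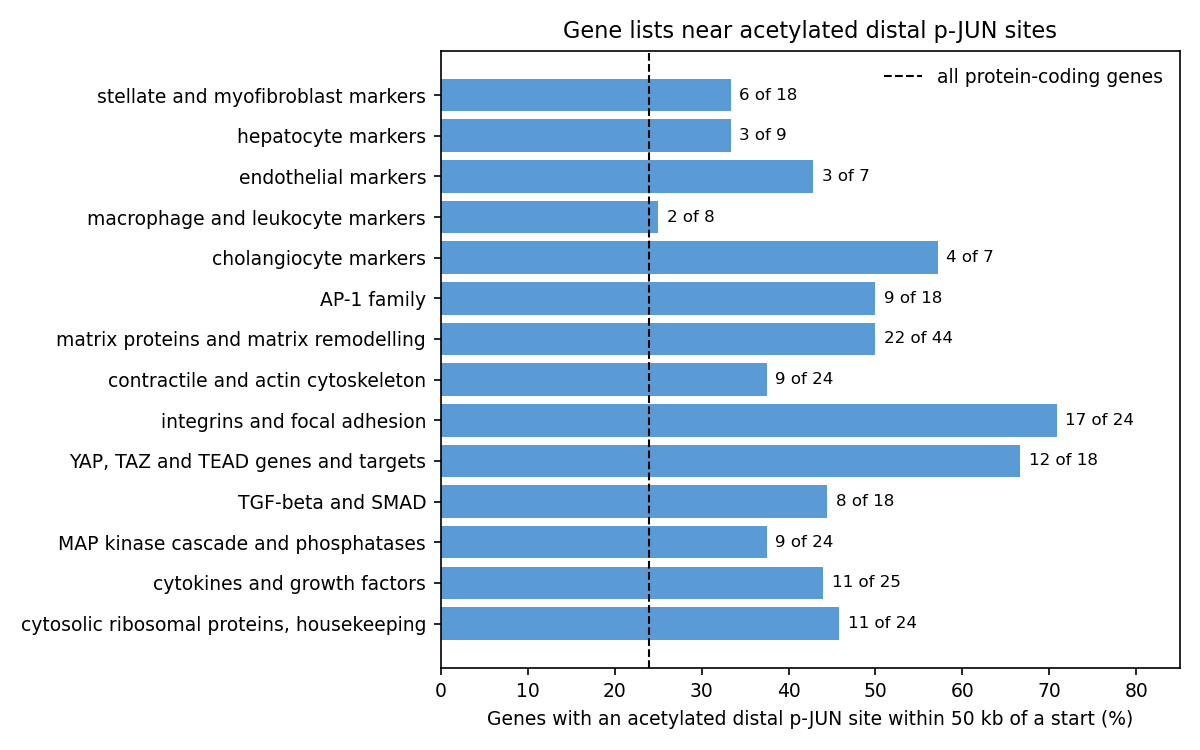
Share of the genes of each list with an acetylated distal p-JUN site within 50 kb of a transcript start, with counts; the dashed line is the share over all protein-coding genes (24.0%). Integrin and focal adhesion genes (17 of 24) and YAP, TAZ and TEAD genes (12 of 18) have the highest shares, and the ribosomal list stands at 11 of 24.

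Some of these genes had several sites. COL4A2, a basement membrane collagen gene, and MYLK, the myosin light chain kinase gene, had 6 each. PDGFB, a growth factor gene for stellate cells, had 6, of which 1 was called higher for p-JUN and 2 lower. Of all coding genes TRIO, a guanine nucleotide exchange factor gene, had the most, at 13, followed by NAV1 with 9. ACTN4, CCN1, COL4A1, ITGA3, LOXL2, SMAD3 and TIMP2 had 5 each. At a site shared by COL4A1 and COL4A2, p-JUN was at 423 and 399 fragments on soft against 507 and 596 on stiff (log2 difference 0.36 ± 0.07, limma adjusted p = 9.7e-05), and both stiff libraries were higher.

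The 5 sites near TIMP2, an inhibitor of matrix metalloproteases, had log2 differences of -0.32 to -0.01, and 2 were called lower. The strongest of them had 1035 and 932 fragments on soft against 840 and 993 on stiff. COL1A1, the gene of the main fibrillar collagen chain, had 3 sites, each with H3K4me3 in all 4 libraries. At the strongest of these p-JUN was at 470 and 424 on soft against 395 and 456 on stiff, and the groups overlapped (-0.13 ± 0.07, adjusted p = 0.25 by limma). JUN itself had 3 sites, all in introns of a non-coding gene, and none was called. Its strongest site had 392 and 346 fragments on soft against 321 and 399 on stiff. Of 3 sites near FBN1, the fibrillin gene, the log2 differences ran from 0.04 to 0.50 and none was called.

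Neighbouring sites were joined where gaps were at most about 12 kb. This gave 5573 groups, of which 4933 were single sites and 104 held 3 or more (345 sites, 5.43%). The 7 groups of 5 or more include those nearest to NFATC2 (6 sites) and to CCN1, EHD1, SOCS3 and TRIO (5 each). The sites of the NFATC2 group lie 176 to 207 kb from that gene's start, and no coding gene starts within 50 kb of the group. The CCN1 group was the one of the 7 in which H3K27ac was higher in the stiff list at every site. CCN1 codes for a secreted matricellular protein and is a widely used YAP and TEAD target, and its sites lie 26.6 to 48.6 kb from its start. Their H3K27ac fragments were 64, 51, 42, 18 and 18 on soft and 72, 54, 48, 20 and 22 on stiff, a centred log2 difference of 0.29 to 0.50. With 1 list per matrix this has no replicate check. For p-JUN, 4 of the 5 sites had log2 differences of -0.01 to 0.07 and the other -0.41 ± 0.14 (adjusted p = 0.029 by limma). No AP-1 motif was within 50 bp of any of the 5 summits, and TEAD letters were at 2 of them. The window of 1 of these, chr1:86088801-86088901, is shown with the TEAD letters in capitals.
CCN1: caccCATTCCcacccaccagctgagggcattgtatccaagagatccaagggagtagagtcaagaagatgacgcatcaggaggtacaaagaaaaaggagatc

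A few sites were far above the rest. There were 33 with a mean of more than 1000 p-JUN fragments and 7 with more than 2000. The highest, at chr5:10028-11771 by the end of the chromosome, reached 11398 and 10618 on soft against 8091 and 9501 on stiff. Telomere repeat letters (3 copies of TTAGGG in a row, either strand) were found in 13 of the 6350 regions, including 3 of the 7 highest, and 8 of the 13 lay within 100 kb of a chromosome end. H3K27ac at these 13 was also high, with a median of 243 fragments on soft and 235 on stiff. Reads from repeats can come from several places in the genome, and the part of this in their signal was not tested. Among the 33 highest sites, 17 (51.5%) had an AP-1 motif at the summit.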

How the data were processed

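The authors trimmed reads with Trim Galore, aligned them to hg19 with Bowtie2, used Picard for duplicates and MACS2 for peak calling; its version, options and any control were not given in the sources used here. The deposited narrow lists (p-JUN, H3K27ac, H3K4me3) hold per peak a fold ratio over local background, a −log10 p, a −log10 q and a derived score, with no −log10 q under 5. The deposited broad lists (H3K27me3) hold the same averaged over a peak. Each list was called on its own, and H3K27ac on merged libraries.

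Here the deposited fold and −log10 p of a peak, taken as a Poisson tail, gave the fragments at its summit. Whole numbers were found for 100% of narrow peaks at a tolerance of 0.0001. Library totals were not used here, so depth is known only through these summits (medians of 60 to 64 fragments in the p-JUN lists), and precision at a site of few fragments is limited by counting. Peaks on 24 chromosomes were used, which left out 2 to 8 per list. Coding starts were those of GENCODE 44 mapped to GRCh37, and sequences were read from GRCh37. Gene lists were counted at 50 kb.

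p-JUN was tested on log2 fragments, each library centred on its median over the regions called in all 4, with limma 3.58.1 (trend) in R 4.3.3 and Benjamini-Hochberg adjustment over all regions. The variance was set mainly by the trend over regions (prior degrees of freedom 279, against 2 from the libraries of a region), so the p-values carry little of a region's own spread. On simulated data of 40433 regions with 200 changed, 43% were recovered at 1.5-fold and 88% at 2-fold. The simulated noise was normal and its size depended on level alone, which is what the trend fit assumes. These rates therefore cannot vouch for the calls in the deposited data. Shares per library were compared by exact permutation or sign-flip tests, and Wilson intervals (95%) cover counting error only. The sign-flip tests used sequences of the same regions read at each library's summit, so their libraries are not independent measurements. Scripts ran in Python 3.11.15 with pysam 0.24.0, scipy 1.17.1, pandas 2.3.3 and numpy 2.4.6.

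Sites were named by fixed rules: the 6 highest p-JUN ranks with AP-1 at all summits, the 3 largest called changes each way, the 3 highest and lowest H3K27ac ratios, the largest groups, and the genes of each list with the most sites. The called changes were taken where both stiff libraries lay on the same side of both soft ones. TRIO, NAV1, the COL8A1 sites within 50 kb and the TEAD and AP-1 examples were named after their values were seen. The sites and gene lists were chosen with earlier results of these data known. Same-numbered libraries did not deviate together (correlation 0.05), so the numbers were not treated as pairs. Alternatives were other centrings, fits, windows and distances, and their effects are summed up in the closing section. Some named sites, genes and sequences that these rules select are not reported here.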

Additional observations from a re-analysis of the deposited data

How the results depend on the processing

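Over 81 pairs of a result and an alternative, 60 kept the result by the rule for its kind, 20 moved it and 1 turned its sign. For a difference in share, keeping it meant only the same sign, and for a count a size within a fixed ratio. Other shares and medians had to stay within their spread or interval. Values counted as kept could still differ much, such as an AP-1 difference of -17.0 points against -9.73, or 815 sites called against 1146. This tally also takes the p-JUN calls without their direction. Their split, 440 higher and 706 lower, turned to 496 and 319 with quantile normalization, and it turned without the second soft library. It was 342 and 1100 when centred on distal sites without H3K27ac. The calls over all regions turned in the same settings. With H3K27ac over 50% or more of a region 3820 sites remained, with an AP-1 share of 29.6%. That share was 33.3% with every transcript start counted or with lists of equal length, 15.3% within 25 bp, 45.7% within 100 bp, 62.6% anywhere in the region and 39.99% with any middle base or TGACGTCA, and it was lower than at sites without H3K27ac under all 16 alternatives of the difference. The acetylated sites called for p-JUN numbered 0 with the deposited fold, 0 without the variance trend and 328 to 1176 with a library left out. Their median log2 difference was -0.011 with the deposited fold, -0.0021 with quantile normalization and -0.089 when centred on distal sites without H3K27ac, the last chosen after seeing the data. The H3K27ac median was -0.015 with the deposited fold. Genes with a site were 11.7% at 20 kb, 38.6% at 100 kb and 18.4% by nearest gene.

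With the replicate number as a block, 1224 sites were called, and the median p-JUN difference (-0.047), the H3K4me3 difference (2.39) and the H3K27me3 difference (0.126) were as without it. Leaving out a library gave a H3K4me3 difference of 0.606 to 4.17 and a H3K27me3 difference of -0.0079 to 0.260. The cause of these moves was not tested.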
